A study of Mus musculus with 4 samples.

Results

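Control kidney fibroblasts were compared with control 3T3 fibroblasts, region by region, by their chromatin accessibility. Regions of the 2 deposited tables were paired 1 to 1 when they overlapped by at least 1 bp on the same chromosome, widest overlap first, with chromosome Y and mitochondrial DNA left out. This gave 4584 pairs from 5727 regions of the kidney table and 28445 regions of the 3T3 table, or 80.2% of the kidney regions compared and 16.1% of the 3T3 regions. Of the kidney regions left over, 1043 overlapped no region of the 3T3 table and the others lost out to a wider overlap.

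The study profiled mouse fibroblasts of 4 genotypes by ATAC-seq, in which the Tn5 transposase inserts sequencing adapters into open chromatin. The kidney control came from kidney tissue and carried floxed alleles of Kindlin-2, the integrin adaptor encoded by Fermt2. The 3T3 control was an embryo-derived fibroblast line with wild-type Rela, the gene for the p65 subunit of NF-kB. A Kindlin-2 knockout culture shared the kidney table and a Rela knockout culture shared the 3T3 table. Libraries of 50000 cells were made at passages 15 to 20 in the same medium with bovine calf serum, and whether any line was a single clone is not given in the sources used here. With a single value per genotype and region there is no error between cultures and no test, and cell origin, genotype background and table cannot be told apart. In bulk chromatin, a larger share of cells with an open region cannot be told apart from wider opening in each cell.

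The values are a normalized signal that the authors scaled within each table. Levels were therefore not set against each other across tables, and each region was instead given its percentile rank of control signal among the pairs. A difference is the kidney rank minus the 3T3 rank, in points, and 25 points was the size used for counting. Intervals in brackets are 95% counting intervals of that difference and hold no error between cultures or from the background correction of the signal. In the kidney control 91.8% of the signal lay in mitochondrial DNA. The median region stood for 11.8 implied counts in the kidney control and 49.8 in the 3T3 control, and the median interval of a difference was 49.2 points wide.

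Fibroblasts of different organs share a large set of open promoters of housekeeping genes and differ mostly at regulatory regions that record where in the body the cells arose. Fibroblasts on stiff plastic also respond to mechanical cues, for which YAP and TAZ, coactivators that enter the nucleus and bind TEAD factors at DNA, are the best known route. TEAD sites often lie near sites of AP-1, the Jun and Fos dimers.

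Promoters of 4 genes of the YAP and TGF-beta pathways are shown first, picked after their values were seen, from RefSeq on GRCm38.p6, the assembly also called mm10. Each runs 5′ to 3′ on the gene's strand from 250 bases before the start to 50 bases after it. F3 encodes tissue factor, the cell-surface trigger of blood clotting. Ankrd1 encodes a nuclear ankyrin-repeat protein much used as a YAP reporter, and Wwtr1 encodes TAZ itself. These 3 genes ranked higher in kidney fibroblasts. Tgfbr2, the type II receptor for TGF-beta, ranked higher in 3T3. Capitals mark matches to TGANTCA, the AP-1 letters, or GGAATG, the TEAD letters, on either strand. The 2 motifs do not overlap each other.
F3 promoter, chr3:121723287-121723586, plus strand: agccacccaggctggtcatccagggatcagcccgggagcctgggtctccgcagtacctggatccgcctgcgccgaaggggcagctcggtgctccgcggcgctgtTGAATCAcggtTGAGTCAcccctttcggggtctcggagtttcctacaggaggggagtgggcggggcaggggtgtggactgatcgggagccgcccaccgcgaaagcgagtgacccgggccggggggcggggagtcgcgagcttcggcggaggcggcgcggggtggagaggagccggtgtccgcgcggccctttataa
Ankrd1 promoter, chr19:36119795-36120094, minus strand: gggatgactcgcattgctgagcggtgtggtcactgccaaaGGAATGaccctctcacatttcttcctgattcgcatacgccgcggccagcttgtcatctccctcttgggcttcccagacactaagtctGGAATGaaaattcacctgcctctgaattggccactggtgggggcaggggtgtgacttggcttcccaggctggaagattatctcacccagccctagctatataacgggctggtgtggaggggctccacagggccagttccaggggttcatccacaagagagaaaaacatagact
Wwtr1 promoter, chr3:57575827-57576126, minus strand: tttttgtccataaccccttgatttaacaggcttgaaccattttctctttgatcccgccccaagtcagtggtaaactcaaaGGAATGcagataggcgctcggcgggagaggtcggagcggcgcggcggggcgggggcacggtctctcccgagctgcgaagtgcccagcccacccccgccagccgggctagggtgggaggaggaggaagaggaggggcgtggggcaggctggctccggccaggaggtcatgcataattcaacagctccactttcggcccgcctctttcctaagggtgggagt
Tgfbr2 promoter, chr9:116175314-116175613, minus strand: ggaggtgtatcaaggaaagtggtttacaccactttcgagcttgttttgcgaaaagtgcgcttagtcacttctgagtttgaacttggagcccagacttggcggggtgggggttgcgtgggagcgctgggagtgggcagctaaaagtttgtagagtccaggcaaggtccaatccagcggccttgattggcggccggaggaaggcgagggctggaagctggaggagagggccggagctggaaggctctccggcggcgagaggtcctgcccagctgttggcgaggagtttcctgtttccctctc

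The F3 window held 2 AP-1 matches, which began at positions -146 and -135 from the start, and no TEAD match. Ankrd1 had 2 TEAD matches, at -210 and -123, and Wwtr1 had 1 at -170, with no AP-1 match in either. Neither set of letters occurred in the Tgfbr2 window. A match describes the sequence only and does not show that a factor was bound.

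The ranks of both controls went together only in part, with a Spearman rho of 0.46 over the 4584 pairs, a description of regions that share chromosomes, base composition and the pairing itself. At promoter pairs, where both regions were centred within 2500 bp of an annotated start, rho was 0.50 over 2390 pairs, and at the 2194 others it was 0.38. Within a table, control and knockout cultures had rho of 0.65 for kidney and 0.69 for 3T3. The kidney rank was at least 25 points higher at 862 pairs, which is 18.8% of all, and the 3T3 rank at 879 pairs, 19.2%. The counting intervals of the 2 ranks were also apart at 645 of the former (14.1% of all pairs) and 556 of the latter (12.1%). Away from promoters more pairs ranked higher in kidney, 478 or 21.8%, than in 3T3, 409 or 18.6%. At promoters 384 or 16.1% ranked higher in kidney and 470 or 19.7% in 3T3. That order is relative to all pairs. With promoters ranked among themselves the counts were 432 and 431. Ranking anew balances the differences by construction, so these counts cannot show whether promoters lean toward 3T3.

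Region width moved with these differences. Regions were wider in the 3T3 table, with a median of 566 bp against 258 bp, and the 3T3 region was at least 2 times as wide in 54.6% of pairs. With the pairs split into 4 equal groups by width ratio, 3T3 to kidney, the median difference was 16.1 points in the group with the smallest ratios and -22.6 in the group with the largest. That last group held 549 of the 879 pairs higher in 3T3. With signal divided by width, 817 of the 862 kidney-higher pairs still had a positive difference, and 564 passed 25 points. Of the 879 pairs higher in 3T3, 715 still had a negative difference and 491 passed 25 points. The part of width in the other differences was not tested.

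**Figure D1:**
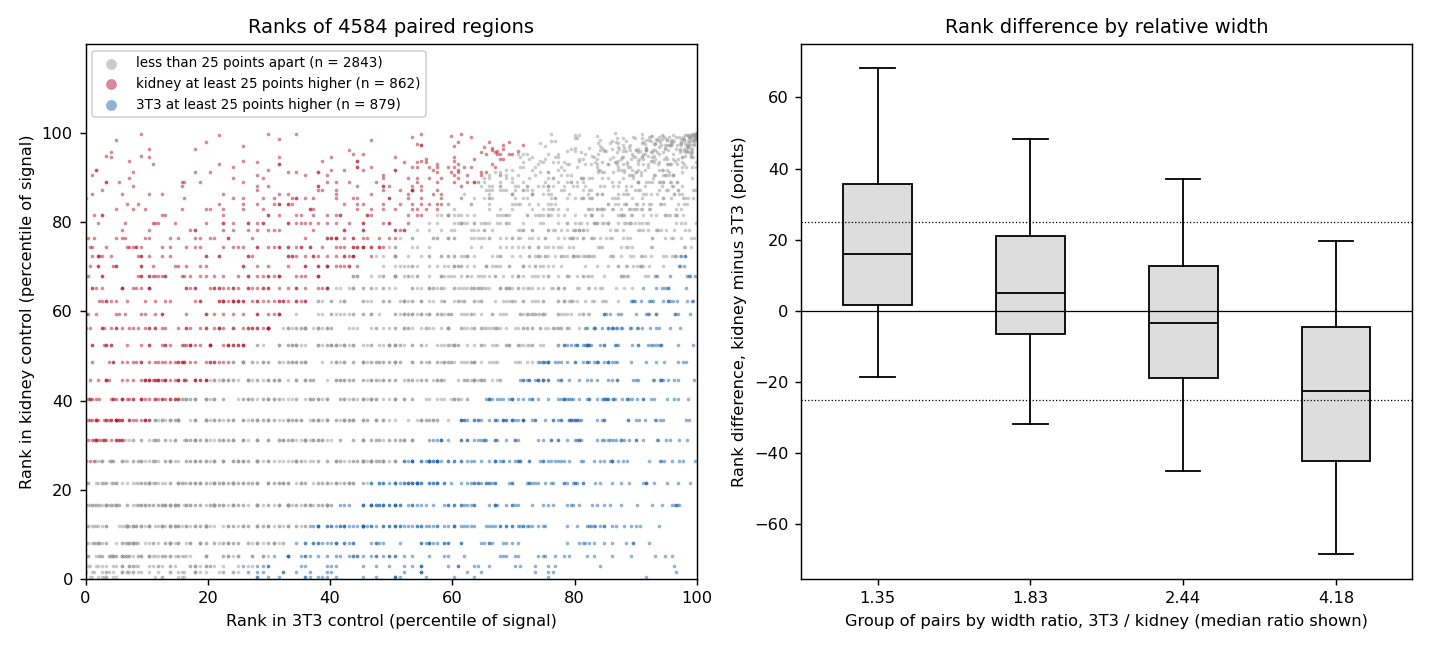
Left, the percentile rank of control signal in kidney fibroblasts (vertical axis) against 3T3 fibroblasts (horizontal axis), 1 point per paired region; 862 pairs ranked at least 25 points higher in kidney and 879 in 3T3. Right, rank differences in points in 4 equal groups by width ratio, with boxes for the interquartile range, lines for medians and whiskers from the 5th to the 95th percentile; medians fall from 16.1 to -22.6.

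The knockout cultures gave a second pair of libraries over the same regions, although each was normalized together with its control. A pair thus had the same width ratio in both comparisons, and differences moved with that ratio. How much of the agreement below comes from shared regions and widths was not tested. Of the 862 kidney-higher pairs, 368 (42.7%) were also at least 25 points higher in kidney between the knockouts, against 20.5% of all pairs. Of the 879 higher in 3T3, 418 (47.6%) were so between the knockouts, against 21.5% of all pairs. Opposite differences of that size occurred at 68 and 66 of these pairs. Of the 114 regions that the naming rules chose in the controls, 63 kept their direction and 25 points between the knockouts, and 68 did so divided by width.

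Among promoters with the same gene name in both tables and rank intervals apart, those highest in kidney were led by Csf2ra, the alpha subunit of the GM-CSF receptor. Its kidney region, like all coordinates here on mm10, was chr19:61227165-61227488. Its signal was 59 in kidney and 12 in 3T3, ranks of 94.6 and 4.14, a difference of 90.5 points (82.8 to 94.2). Ica1, an islet cell autoantigen involved in secretory vesicles, had signals of 41 and 3 and differed by 85.3 points (70.1 to 93.4). Gnaz, a G protein alpha subunit, had a signal of 39 in kidney and was listed at 0 in 3T3, a difference of 85.2 points. These 3 promoters ranked near the top of the kidney pairs and near the bottom of the 3T3 pairs. Pbx3, a homeodomain partner of Hox and Meis factors, had signals of 30 and 2 and differed by 73.8 points (49.9 to 88.9). Slc16a10, a transporter of aromatic amino acids, had 29 and 7, and differed by 70.2 points. The others of the 12 were Prelid2, F3, Tmem231 of the ciliary transition zone, the phospholipid flippase gene Atp8a1, the mitochondrial pyrophosphatase gene Ppa2, the B-cell adaptor gene Blnk and Asmt, which makes melatonin. Between the knockouts 7 of these 12 also passed 25 points; Csf2ra was at 2.55, Gnaz at 6.36, Tmem231 at 1.05, Blnk at 2.13 and Atp8a1 at -0.153. Signal divided by width left all 12 above 25 points. At all 12 the 3T3 signal was lower in the control than in the Rela knockout. These 2 signals were 12 and 84 at Csf2ra, 3 and 62 at Ica1, 0 and 67 at Gnaz, 17 and 180 at Blnk and 3 and 9 at Atp8a1. The higher kidney ranks of these promoters thus came with a 3T3 control signal below that of its own knockout culture.

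The promoters highest in 3T3 were led by Nipal1, a magnesium transporter gene with a signal of 1 in kidney and 250 in 3T3, a difference of -95.3 points (-96.5 to -86.9). Its kidney region, chr5:72649109-72649269, lay within a 3T3 region at chr5:72647507-72649581. Maoa, the monoamine oxidase A gene, was listed at 0 in kidney and had 191 in 3T3, a difference of -91.3 points (-93.9 to -81.4). E2f1, a factor that drives entry into S phase, had signals of 7 and 209 and differed by -82.0 points (-92.0 to -46.9). All 3 kidney signals stood for few implied counts, so their ranks are loosely set. Nck1, an adaptor between tyrosine kinases and actin, had 7 and 180 and differed by -78.1 points. Several 3T3 regions here were several times wider than their kidney partner. Divided by width, the differences of Mid1ip1, Cst3, Rcor3 and Hist1h2ab shrank to -2.18, -1.45, -8.01 and -11.8 points, while Nck1 stayed at -75.3 and Trac, the constant segment of the T-cell receptor alpha chain, at -85.9. Tada1, a subunit gene of the SAGA coactivator, was at -32.4, Setd5 at -39.3 and C2cd5 at -36.5 points on that scale. Between the knockouts 10 of these 12 passed 25 points toward 3T3, and E2f1 at -18.1 and Trac at -15.7 did not.

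**Figure D2:**
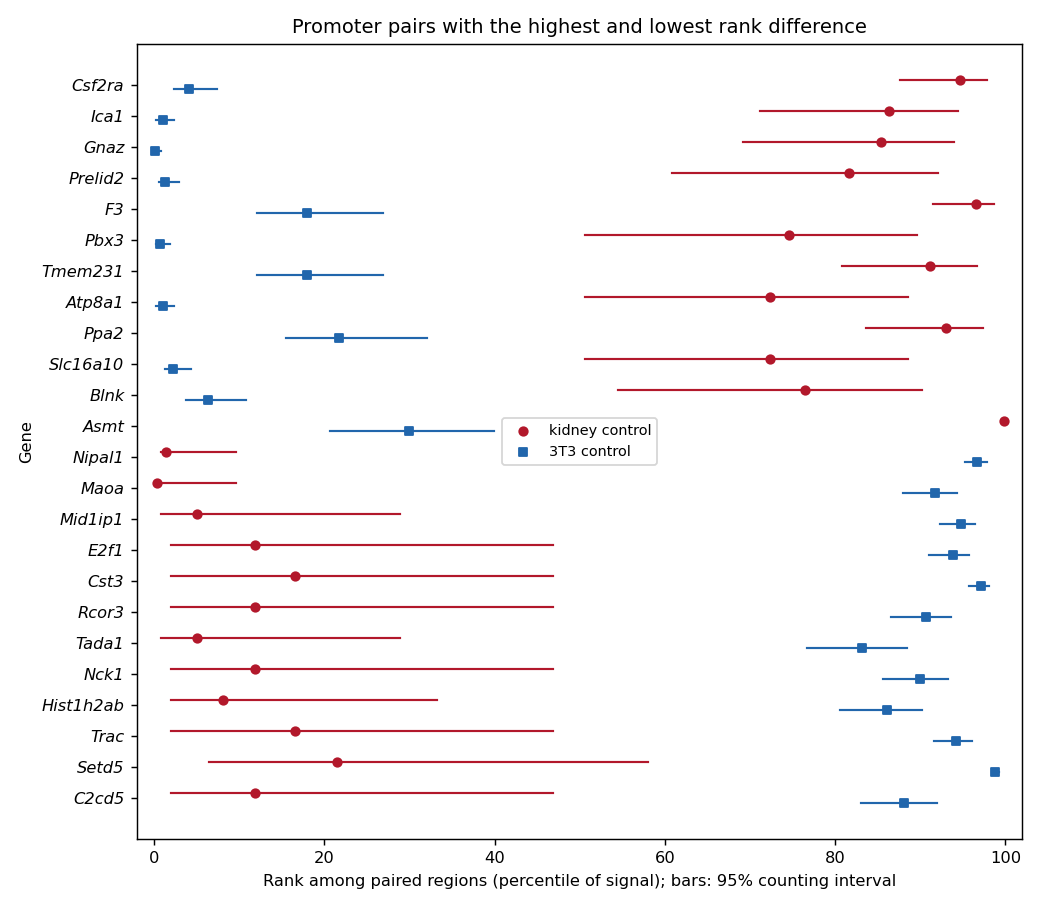
Ranks of control signal among paired regions, in percentiles, for the 24 promoter pairs with the most extreme rank differences, 12 each way; red circles are kidney, blue squares are 3T3 and bars are 95% counting intervals. Kidney intervals are wide at low ranks, as for E2f1 with a kidney signal of 7.

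Pairs outside the promoter class reached differences of the same size, and most had no gene name. The region at chr7:130834426-130834639 had signals of 63 in kidney and 12 in 3T3, a difference of 91.5 points, and differed by 60.4 points between the knockouts. At chr3:19426166-19426317 the signals were 3 and 244, a difference of -93.5 points, which became -4.50 when divided by width; the 3T3 region spanned 4427 bp. Rab32, a small GTPase gene of lysosome-related organelles, was the 1 named gene among these 10 extremes. Its kidney region was centred 2811 bp from the start and its 3T3 region 1393 bp, so it missed the promoter class on the kidney side alone. It had a difference of -88.1 points and -3.30 divided by width.

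Genes were then described in lists of pathways and families, with 1 region pair per gene. Over all 2201 paired genes, 359 or 16.3% ranked at least 25 points higher in kidney and 435 or 19.8% in 3T3, with a median difference of 0 points. On signal divided by width these shares were 20.6% and 19.7%, and between the knockouts 14.1% and 23.4%. All paired genes of the YAP and TEAD and NF-kB lists are named, a choice made after their values were seen. The paired YAP and TEAD genes had the highest median of the lists with at least 7 paired genes. Of its 26 genes, 19 were in the 3T3 table and 9 were paired, of which 8 ranked at least 25 points higher in kidney and none in 3T3, with a median of 41.2 points. Intervals were apart for 7 of the 8.

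Among the pathway's targets, F3 had signals of 67 in kidney and 38 in 3T3, ranks of 96.5 and 17.9 and a difference of 78.6 points (68.3 to 84.8). Ankrd1 had 34 and 27 and differed by 68.5 points (46.0 to 81.3). Nt5e, the ecto-5′-nucleotidase CD73 that also marks kidney interstitial fibroblasts, had 39 and 58 and differed by 51.6 points (32.8 to 64.1). All 3 targets ranked high among the kidney pairs and low among the 3T3 pairs. Of the transducers, Wwtr1 had 61 and 110, a difference of 27.9 points, and Tead4, a DNA-binding partner, had 29 and 70, a difference of 30.1 points (5.88 to 48.5). The upstream inhibitors went the same way. Nf2, which encodes merlin, differed by 46.8 points with signals of 34 and 57. Stk3, the Hippo kinase MST2, differed by 41.2 points with 50 and 81, and Mob1b, a scaffold for the LATS kinases, by 39.8 points with 20 and 36. Ptpn14, which holds YAP in the cytoplasm, was the exception at -15.1 points (-35.3 to -1.45).

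With signal divided by width the list's median was 46.7 points and 5 of the 9 passed 25 points. Between the knockouts the median was 19.3 points, 4 of 9 passed 25 points and Ptpn14 passed it in the other direction. Nt5e turned to -24.8 points between the knockouts, where its kidney signal was 8. F3 stayed at 39.0, Ankrd1 at 40.6 and Wwtr1 at 51.4 points. Divided by width Wwtr1 was at 22.3, Mob1b at 21.8 and Stk3 at 17.6, and Tead4, Stk3 and Mob1b were at 16.6, 19.3 and 14.5 between the knockouts.

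The other 10 genes of this list in the 3T3 table had no kidney region and so no rank difference. They include the YAP targets Cyr61, with a 3T3 signal of 233, Amotl2 with 183, Crim1 with 167 and Ctgf with 96, the coactivator Yap1 with 78, the kinase gene Lats2 with 154 and the TEAD cofactor Vgll3 with 257. Of the genes with a 3T3 promoter signal of 146 or more, 69.3% did have a kidney region. That share was 46.3% at signals of 86 to 107, the group of Ctgf, and 40.5% at 71 to 85, the group of Yap1. Over the list as a whole, 47.4% of its 3T3 genes had a kidney region, against 31.0% over all 3T3 genes. The counts of rank differences for this list describe its 9 paired genes and not the whole list.

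**Figure D3:**
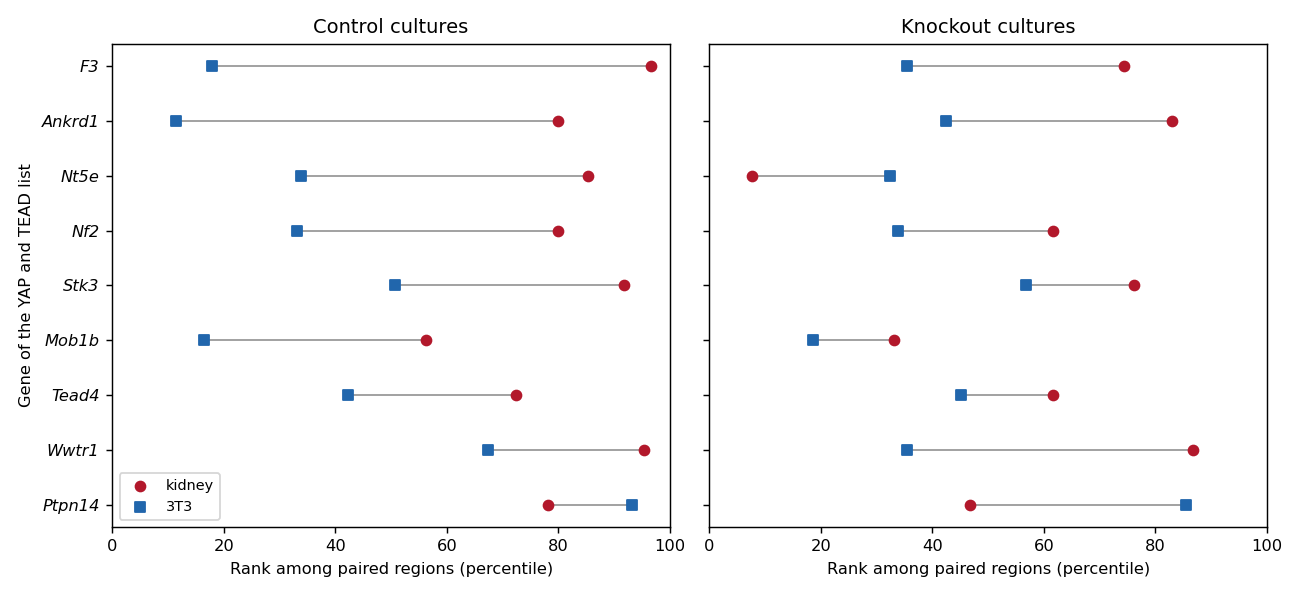
Ranks among paired regions, in percentiles, for the 9 paired genes of the YAP and TEAD list; red circles are kidney and blue squares 3T3, in the control cultures (left) and the knockout cultures (right). In the controls 8 genes rank higher in kidney by 27.9 to 78.6 points, and between the knockouts Nt5e joins Ptpn14 on the other side.

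The NF-kB list went the other way. Of its 7 paired genes, 4 ranked at least 25 points higher in 3T3 and none in kidney, with a median of -29.0 points. Ccl2, the monocyte chemokine and an NF-kB target, had signals of 10 in kidney and 191 in 3T3, a difference of -70.2 points (-85.5 to -33.5). Its 3T3 region was 3588 bp wide against 153 bp, and divided by width the difference turned to 35.0 points. Rel, the c-Rel subunit, had 12 and 140 and differed by -49.3 points, and by -35.3 divided by width. Nfkb2, the p100 precursor, differed by -29.0 points and turned to 34.5 divided by width, and Map3k7, the kinase TAK1, differed by -29.7 points and turned to 14.5 between the knockouts. The inhibitors of the noncanonical branch, Birc2 and Traf3, were at 18.4 and -0.524 points, and its kinase gene Map3k14 at 12.8. Divided by width the list's median was 16.8 points. The other 18 genes of the list in the 3T3 table had no kidney region. Thus 28.0% of its 3T3 genes had one, near the 31.0% over all 3T3 genes. Rela itself was among the 18 without one, with a 3T3 signal of 21. So were the inhibitors Nfkbia at 62 and Tnfaip3 at 85 and the chemokine Cxcl1 at 74.

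Of the TGF-beta and BMP list 8 genes were paired, 1 higher in kidney and 3 in 3T3. The paired receptors split. Tgfbr2 was listed at 0 in kidney and had 128 in 3T3, a difference of -75.3 points (-82.2 to -63.0), and in the knockouts its signals were 8 and 82. Tgfbr1, the type I receptor that Tgfbr2 activates, had 38 and 82, a difference of 32.7 points, but 9.76 divided by width and -3.04 between the knockouts. Id2, a target of BMP signals, differed by -35.9 points and Acvr2a, an activin receptor, by -27.9 points, with rank intervals that overlapped for both. Between the knockouts Id2 was at -17.6 and Acvr2a turned to 18.99.

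In the matrix list 5 genes were paired, 1 higher in kidney and 2 in 3T3. Fn1, which encodes fibronectin, had signals of 26 and 55 and differed by 36.3 points, yet by -25.2 between the knockouts. Thbs1, encoding thrombospondin 1, had 10 and 167 and differed by -66.0 points (-81.6 to -29.1), and Vcan, encoding versican, by -41.0 points. Neither passed 25 points on the other scales: Thbs1 was at -14.6 divided by width and -9.57 between the knockouts, and Vcan at 8.49 and -8.22. Of 10 paired integrin adhesion genes, 1 ranked higher in kidney and 3 in 3T3. Rsu1, which binds PINCH in the complex of integrin-linked kinase, had 38 and 55 and differed by 52.6 points (32.6 to 66.1), and by 52.4 between the knockouts but 5.36 divided by width. Itga1, a collagen receptor subunit, had 15 and 147 and differed by -42.1 points, but by 38.8 between the knockouts. Bcar1, the focal adhesion scaffold p130Cas, differed by -36.9 points and turned to 31.0 divided by width. Itgb8 differed by -31.9, by -12.7 divided by width and by 14.2 between the knockouts. Fermt2, the Kindlin-2 gene, had no region in either table.

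Among developmental transcription factors 7 genes were paired, 2 higher each way. Pbx3 led the kidney side. Irx5, a homeobox factor of patterning, had signals of 11 and 276 and differed by -71.3 points (-91.3 to -39.7), then by 6.66 divided by width and -87.3 between the knockouts. Pax9 had 12 and 3 at a region 3771 bp from its start, a difference of 30.0 points, and turned to -16.0 between the knockouts. Of the interferon list 6 genes were paired and 3 ranked higher in 3T3, none in kidney. They were Irf2, a repressor of interferon genes, at -71.4 points, the receptor gene Ifnar1 at -38.0 and the induced gene Ifit2 at -29.8. Divided by width 1 of the 6 passed each way, with Irf2 at -9.69 and Ifit2 at 2.03. Between the knockouts 3 of the 6 passed toward 3T3 and none toward kidney. Irf2 was then at -44.7, Ifnar1 at -10.3 and Ifit2 at -6.48. In the AP-1 and stress bZIP list 2 of 5 ranked higher in 3T3, Bach1 at -62.6 and Crem at -51.0 points, with none higher in kidney. Divided by width the list had 2 higher in kidney and none in 3T3, with Bach1 at -12.4 and Crem at -21.3, and between the knockouts Bach1 was at -12.6. In the p53 list 2 of 7 did, Gadd45a at -34.4 and Sesn2 at -29.1 points, both positive when divided by width, and 5 of 7 did between the knockouts.

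Larger families varied around the shares over all paired genes, 16.3% higher in kidney and 19.8% in 3T3. Of 59 paired Zfp genes, zinc finger factors of which many repress transposons, 14 (23.7%) ranked higher in 3T3 and 6 (10.2%) in kidney, with a median of -7.08 points. Zfp994 had signals of 3 and 118, a difference of -68.3 points, -64.9 divided by width and -13.8 between the knockouts. Zfp248 had 35 and 44, a difference of 59.1. Divided by width 19 of the 59 ranked higher in 3T3 and 8 in kidney, and between the knockouts 9 and 6 did. Of 33 Rab and vesicle traffic genes 11 (33.3%) ranked higher in 3T3 and 3 in kidney. Vps4b, the ATPase that takes ESCRT complexes apart, was at -66.3 points and the endosomal sorting nexin gene Snx17 at 61.9. Divided by width, 4 of the 33 passed 25 points toward 3T3 and Vps4b was at -18.0. Between the knockouts 9 of the 33 passed toward 3T3. Of 25 kinesin, dynein and centrosome genes 7 (28.0%) ranked higher in 3T3, among them Cep120 at -62.6 and Cep70 at -50.6 points, and 3 in kidney, led by the kinesin-2 subunit Kifap3 at 60.9. Cep120 was at -11.5 between the knockouts and Kifap3 at 17.7 divided by width. Of 34 solute carriers 7 (20.6%) ranked higher in kidney, with Slc25a3, the mitochondrial phosphate carrier, at 68.1 points, and 5 in 3T3, with Slc12a7 at -55.0, or -15.1 divided by width. Of 40 ubiquitin ligases and proteases 5 ranked higher in kidney, led by Fbxl21 at 44.2 and the K63-chain enzyme Ube2n at 43.3 points, and 6 in 3T3, led by Rnf39 at -62.8. Between the knockouts Fbxl21 was at 20.1 and Rnf39 turned to 57.7; divided by width Rnf39 was at -4.46.

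Lists of basic cell machinery had few genes past 25 points in the controls, and several had more on the other scales. Of 20 paired cell cycle genes, 2 ranked higher in kidney and 2 in 3T3, with a median of 5.73 points. Orc2, of the origin recognition complex, was at 48.2 points and E2f1 at the other end. Divided by width 4 of the 20 ranked higher in kidney and 6 in 3T3. Of 15 oxidative phosphorylation genes 1 passed, Ndufv2 of complex I at -27.3. Divided by width 7 of these 15 ranked higher in 3T3 and none in kidney, and between the knockouts 2 ranked higher in 3T3 and 5 in kidney. Of 12 genes listed as mitochondrial ribosomal by symbol prefix alone, 1 passed, Mrps36 at -37.8 points. Mrps36 was at -22.2 divided by width and -2.52 between the knockouts. Divided by width 3 of the list ranked higher in 3T3 and 1 in kidney. None of 4 paired proteasome genes passed 25 points in the controls, 2 did toward 3T3 divided by width and 1 toward kidney between the knockouts. Of 4 paired histone genes 3 ranked higher in 3T3, led by Hist1h2ab at -78.0 and Hist1h2bm at -61.2 points. All 3 lie close together on chromosome 13, so they are not separate loci. On that chromosome 27.2% of pairs ranked higher in 3T3 and 13.4% in kidney. With each difference centred on its chromosome, 3 of the histone genes still passed 25 points. Histone genes are near-identical copies, so reads may be split between them, and divided by width 1 of the 4 passed 25 points. Between the knockouts 3 of the 4 passed toward 3T3. Chromatin modifiers had Smarca2, the BRM ATPase, at 59.2 and Kmt2c, a histone H3 methyltransferase, at -59.7 points among 13 paired genes. Smarca2 was at 18.3 between the knockouts and Kmt2c at -19.01 divided by width.

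**Figure D4:**
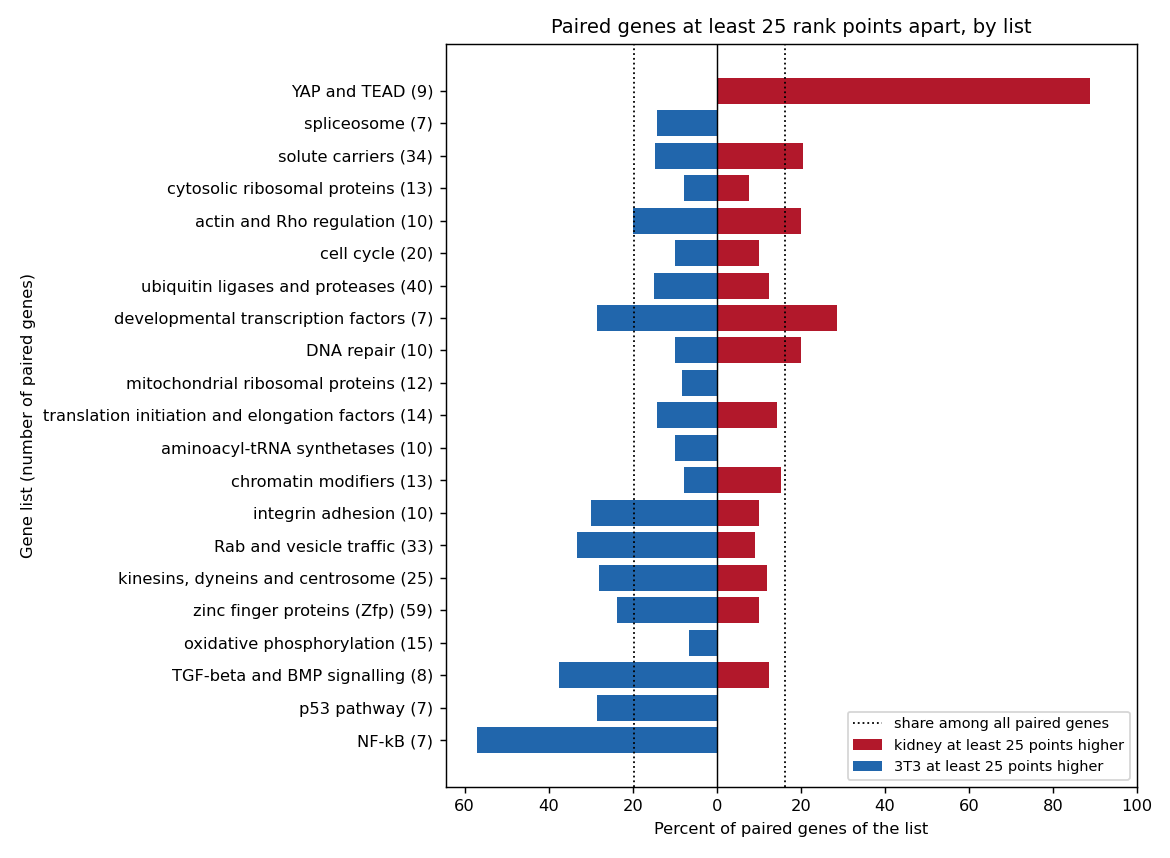
Percent of the paired genes of each list (number in brackets, lists with at least 7) that ranked at least 25 points higher in kidney (red, to the right) or in 3T3 (blue, to the left), ordered by the median difference. Dotted lines mark the shares over all 2201 paired genes, 16.3% and 19.8%; YAP and TEAD lies at the top and NF-kB at the bottom.

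Promoter sequences were compared between the called sets. A RefSeq window of the same symbol was found for 1703 of 2106 genes with a promoter pair (80.9%), among them 270 kidney-higher and 345 higher in 3T3. The AP-1 letters TGANTCA occurred in 21 kidney-higher windows (7.78%), 10 windows higher in 3T3 (2.90%) and 82 of all 1703 (4.82%). Over every RefSeq window of the table the share was 7.79%. The TEAD letters GGAATG occurred in 12.2%, 9.86% and 11.5% of the 3 sets, against 14.6% of every window. The letters GGGCGG of SP and KLF factors were in 78.5%, 73.0% and 75.04%, against 35.9% of every window. Median GC content was 65.0%, 63.0% and 63.7%. CCAAT of NF-Y, CCGGAAG of ETS factors and the E-box CACGTG were in 48.1%, 20.0% and 8.15% of kidney-higher windows, and in 46.4%, 17.7% and 8.99% of those higher in 3T3.

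Chromosomes differed in how many regions each table held. The kidney table had 20.1 regions per 100 of the 3T3 table over all, with 5.93 on chromosome 9, 8.89 on X, 14.1 on chromosome 7 and up to 27.8 on chromosome 1. Among pairs, the median difference ran from -7.82 points on chromosome 9 to 12.1 on chromosome 10. On chromosome 10, 33.7% of pairs ranked higher in kidney, and on chromosomes 9 and X 36.1% and 34.6% ranked higher in 3T3. Between the knockouts these medians were -23.8 on chromosome 9, 16.6 on 10 and -32.0 on X. Of the genes named above, Csf2ra and Ankrd1 lie on chromosome 19, Gnaz, Slc16a10 and Rab32 on 10, Nt5e, Nck1 and Tgfbr2 on 9, and Maoa, Mid1ip1 and Asmt on X. Some of these went against the lean of their chromosome: Rab32 ranked higher in 3T3, and Nt5e and Asmt in kidney. With each difference centred on its chromosome, 7 of the 9 YAP and TEAD genes passed 25 points.

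Presence of a named gene was compared next, without levels. The kidney table named 2479 genes and there were 7224 in the 3T3 table, of which 2239 were in both. That is 90.3% of the kidney genes and 31.0% of the 3T3 genes, so 240 names were in the kidney table alone and 4985 in the 3T3 table alone. The share of 3T3 promoter genes with a kidney region went from 9.10% at 3T3 signals up to 17 to 69.3% at 146 and above, the lowest and highest of 10 signal groups. Counting promoter regions on both sides, 2131 of 6588 3T3 promoter genes (32.3%) had a kidney promoter region. Absence from the kidney table was more frequent at weak 3T3 signal but also occurred in the highest group. How regions were called is not given in the sources used here, and absence does not show that the chromatin was closed.

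**Figure D5:**
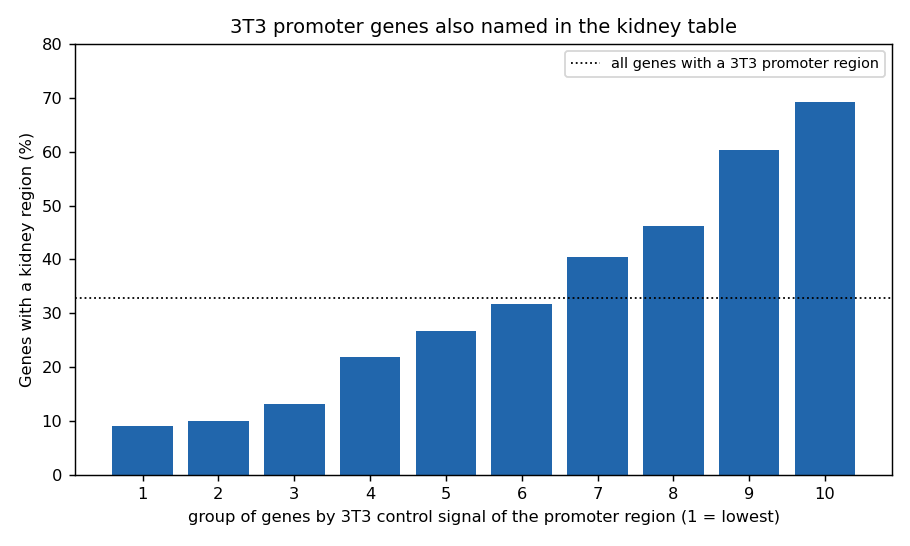
Percent of genes with a 3T3 promoter region that also had a kidney region, in 10 groups by 3T3 control signal from lowest (1) to highest (10); the dotted line is the share over all of these genes. Bars run from 9.10% to 69.3%.

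The strongest promoters absent from the kidney table by name were Trip10, a membrane-bending F-BAR protein gene, with a 3T3 signal of 721, and Zfp703, a corepressor gene, with 673. The kidney table had a region at the Trip10 promoter under another name, Gpr108, whose start lies beside it, and likewise Irak4 for Pus7l. At the other 10 of these 12 strongest genes no kidney region overlapped. They included Tagln2, an actin-binding transgelin, with 423, Aqp1, the water channel, with 366, the GTPase gene Rhoq with 352, the AP-1 subunit Junb with 320 and Eif4ebp1, a brake on translation, with 292. Aqp1, a marker of the proximal tubule in kidney, was thus present in 3T3 and absent in the kidney table. Among all 4425 promoter genes of the 3T3 table with no kidney region of that name, 79 overlapped a kidney region under another name or none.

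In the other direction 220 promoter genes were named in the kidney table alone, and 85 of them overlapped a 3T3 region under another name or none. All 12 with the strongest kidney signal did so, from Gpr108 at 90, Opn3 at 86 and Asb5 at 80 to Fgf20 at 48. The 135 without any overlapping 3T3 region were weak, with a median control signal of 8. Over promoters and other sites, the 1043 kidney regions without overlap carried 198 gene names. The strongest of the 135 promoter genes was Metap2 at 39, and Svip had 27 and Gnai3 23. The names that follow were picked out after their values were seen, many because they are genes of epithelia. They give no share and do not describe the 198 names. None of the 27 genes of the nephron and tubule marker list, Cdh1 and Epcam included, had a kidney region. Pard6b, a polarity protein gene, had a kidney signal of 27, Hook1 33, F11r, which encodes the tight junction protein JAM-A, 18, and Elf3, an ETS factor of epithelia, 15. Mep1a, a brush border protease gene, had 29, Prom1 12, Perp of desmosomes 11 and Pkhd1, the fibrocystin gene, 8. Pou3f3 and Sim1, developmental factors, had 20 each, and Fermt1, the epithelial kindlin gene, had 4 in the control and 28 in the Kindlin-2 knockout. These signals stood for at most 24.2 implied counts each. Pkhd1 had a 3T3 region elsewhere, and the others of these names had none in that table.

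Markers of cell types were looked up in both tables. Over all 3T3 genes 31.0% had a kidney region, and the share was lower at weak 3T3 signal. Of 21 general fibroblast genes, 12 had a 3T3 region, Vim at 110, Pdgfra at 58, Twist1 at 53 and Pdgfrb at 44 among them. Fn1 alone had a kidney region, 8.33% of the 12. Of 20 genes of kidney stroma, 10 were in the 3T3 table and 2 of these, or 20.0%, in the kidney table, Nt5e among them. None of 27 nephron and tubule genes was in the kidney table, Cdh1, Epcam, Pax2 and Wt1 included, and 6 were in the 3T3 table. Endothelial, pericyte and adipocyte lists had no kidney region, and the leukocyte list had 1, at Ptprc with a signal of 10 in kidney and 56 in 3T3. The kidney label was therefore neither borne out nor contradicted by its defining genes, which for the most part had no region to rank. Of 45 Hox genes, which keep a record of body position, 7 had a 3T3 region, such as Hoxd13 at 97, and none a kidney region. These lists are small, and their absences were not tested against the 31.0% over all 3T3 genes.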

How the data were processed

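The authors deposited an ATAC-seq table for kidney and another for 3T3 cells, each with a control and a knockout column. Per the labels' name for each table, the values are a score: background-corrected signal normalized by the DESeq method within the table and rounded to whole numbers. Per the submitters' processing notes, which give no role or order, STAR 2.4.2a, Trimmomatic 0.33, MACS2, Picard 1.136, bedtools, DESeq2, FastQC and deepTools were used on mm10. How the 2 biological replicates of the design text became 1 column, and how Tn5 shifts, duplicates and mitochondrial reads were handled, is not given in the sources used here. Starts may count from 0 or 1.

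Pairs were made and ranked with Python 3.11.15, pandas 2.3.3, numpy 2.4.6 and scipy 1.17.1, after tests on simulated data. Ties took average ranks. Whole counts multiplied by a factor and rounded leave a comb of rare values, and factors of 1.36 (kidney control, 96.3% of the deviance) and 0.683 (3T3 control, 97.7%) gave implied counts. Exact Poisson 95% intervals of these were carried to ranks. Intervals cover counting error only and assume that the combined column is a scaled count. The values were background corrected, and error from that step is not in the intervals, which may therefore be too narrow, as may the counts of intervals apart be too high.

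Gene names were used as deposited; regions near unnamed transcripts count as having none. A gene with several pairs was given 1 of them, promoters first. The text names 12 promoter pairs each way by size of difference (same gene name, rank intervals apart), up to 3 genes each way per list, the 5 extremes each way off promoters, and the strongest genes of 1 table alone. The promoters shown, the naming of every paired YAP, TEAD and NF-kB gene and of genes of these lists without a kidney region, and the width and knockout counts per list were chosen after values were seen. Some genes that these rules or lists name are not reported here. The comparison, these rules, the 30 pathway and family lists and the 8 marker lists were chosen with earlier results of these data known. Alternatives were other overlap, width, threshold, chromosome and promoter choices and the knockout columns.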

Additional observations from a re-analysis of the deposited data

Results flagged for a closer look

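The kidney table held 9 regions on chromosome Y, which the pairing left out, and the 3T3 table held none. Their control signal summed to 406 in kidney fibroblasts and to 79 in the Kindlin-2 knockout. This is a signal in data outside the comparison, and its source was not tested.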

How the results depend on the processing

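No test was made, so what follows is how counts and values moved, and causes were not tested. In some alternatives fewer pairs entered. The 862 kidney-higher and 879 3T3-higher pairs became 283 and 281 of 2027 pairs with at least 50% overlap of both regions, 126 and 121 of 907 pairs whose widths differed by less than 1.5 times, and 432 and 431 of 2390 promoter pairs, in each case with ranks taken anew within the subset. With ranks kept from all pairs the promoter counts were 384 and 470. Ranks taken anew balance the differences within a subset by construction. The near-equal counts there cannot show whether a subset leans either way. Over all pairs the counts were 1299 and 1293 at 15 points, and 395 and 433 at 40 points. Signals above 0, autosomes alone, chromosome centring, width and the knockout columns gave 829 to 982 and 862 to 985. The share of 3T3 genes named in the kidney table, 31.0%, was 32.3% at promoters and 39.3% for 3T3 regions at or above their median. In alternatives added after seeing the data, the 8 of 9 YAP and TEAD genes higher in kidney became 5 divided by width, 4 in the knockout columns and 2 of 5 with similar widths. Toward 3T3, the histone count of 3 became 1 divided by width and stayed at 3 in the knockouts. The NF-kB count of 4 became 1 divided by width and 2 in the knockouts. The Rab and vesicle count of 11 became 4 divided by width and 9 in the knockouts.

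Of 114 named regions, none changed sign with 50% overlap (39 had a value), promoter pairs only (102 had a value) or chromosome centring. Division by width changed the sign of 10, to 31.0 points for Bcar1, 8.49 for Vcan, 35.0 for Ccl2, 26.1 for Gadd45a, 22.1 for Sesn2, 2.03 for Ifit2, -12.0 for Fzd5, 6.66 for Irx5, 32.4 for Foxd2 and -9.09 for Eif1ax. The knockout columns changed the sign of 21. From higher in kidney, Atp8a1 went to -0.153, Fn1 to -25.2, Tgfbr1 to -3.04, Nt5e to -24.8, Nbn to -22.4, Pax9 to -16.0, Rpl22l1 to -1.30, Eif3j1 to -4.37, Zfp664 to -22.4, Fbxw7 to -9.20, Cep68 to -13.3 and the unnamed region at chr8:113250259-113250560 to -6.13. From higher in 3T3, Itga1 went to 38.8, Itgb8 to 14.2, Diaph3 to 3.20, Acvr2a to 18.99, Map3k7 to 14.5, Cdc25a to 6.70, Yars2 to 3.11, Rab3gap2 to 18.7 and Rnf39 to 57.7.

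No paired analysis was possible because each genotype had 1 value column, and no replicate was left out for the same reason. As for depth, the median region stood for 11.8 implied counts in the kidney control, and the median interval of a difference was 49.2 points wide.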

Other observations

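Named genes with a region in both tables but on few implied counts include several whose control and knockout cultures stood far apart within a table. The Pax9 region had 3T3 signals of 3 in the control and 193 in the Rela knockout, and kidney signals of 12 and 25. The Pbx3 promoter had 2 and 44 in the 3T3 cultures, and 30 and 23 in the kidney cultures. For both genes the higher rank in kidney thus came with a 3T3 control signal that was low beside its own knockout culture. The Bach1 region, a heme-regulated repressor gene, had 154 and 336 in 3T3 and 10 and 32 in kidney, higher in the knockout in both tables.

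Of 32 developmental transcription factor genes in the 3T3 table, 7 were also in the kidney table, a share of 21.9% against 31.0% over all 3T3 genes. Of the 3T3 genes of the matrix list, 20.7% were in the kidney table, and of the YAP and TEAD list 47.4%. Of the genes listed as mitochondrial ribosomal by symbol prefix 50.0% were. These shares are descriptions of lists of unequal 3T3 signal.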
